A study of Homo sapiens with 12 samples.

Results

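The genes described here encode the TRAIL death receptors and the proteins that control caspase-8 beneath them. The 8 genes are TNFRSF10A, TNFRSF10B, TNFRSF10C, TNFRSF10D, TNFSF10, FADD, CASP8, and CFLAR. They were found by gene symbol in both count tables, where each symbol has 1 row among the 60708 genes listed. HCT116, a human colorectal carcinoma line labelled WT, was grown in RPMI1640 with fetal bovine serum and exposed to a stressor for 24 h. Oligomycin A (OA) blocks the mitochondrial ATP synthase, and tunicamycin (TN) blocks N-linked glycosylation and so stresses the endoplasmic reticulum. Each stressor was compared with its own DMSO-treated cultures, giving 4 groups of 3 biological replicates and 12 libraries in all. The labels give 5 μg/ml for OA and TN alike, whereas the study's methods give a higher dose for OA.

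TRAIL, the product of TNFSF10, binds receptors on the cell surface. DR4 (TNFRSF10A) and DR5 (TNFRSF10B) carry a cytoplasmic death domain and recruit the adaptor FADD, which gathers procaspase-8 (CASP8) into a complex in which it becomes active. The decoy receptors DcR1 (TNFRSF10C) and DcR2 (TNFRSF10D) bind TRAIL without passing on a death signal, and c-FLIP (CFLAR), a relative of caspase-8, occupies its place in the complex and restrains it. In cells with unresolved endoplasmic reticulum stress, TNFRSF10B is a known target of the transcription factor CHOP, the product of DDIT3. All values below are messenger RNA levels and say nothing of receptor protein, cleavage of caspase-8, or cell death.

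Of the 8 genes, 4 had promoters in the RefSeq table used here (GRCh38.p14), and the 2 genes shown are those with a match to an interferon motif, because the ligand TNFSF10 and CASP8 are described below in cultures that differ in interferon-stimulated genes. The windows run from 230 bases before the start site to 20 bases after it, 5′ to 3′ on the gene's strand. Capitals mark the core of the interferon-stimulated response element (ISRE, GAAA repeated after any 2 bases) and the gamma-activated site (GAS, TTCNNNGAA), searched on both strands. In TNFSF10, at chr3:172523411-172523660 on the minus strand, the ISRE core stands on the opposite strand to the gene and begins at position −187 from the start site. In CASP8, at chr2:201233233-201233482 on the plus strand, an ISRE core on the opposite strand begins at position −3 and a GAS match at position −200, and the 2 motifs do not overlap. The other 2 CASP8 promoters in the table held neither motif.
TNFSF10: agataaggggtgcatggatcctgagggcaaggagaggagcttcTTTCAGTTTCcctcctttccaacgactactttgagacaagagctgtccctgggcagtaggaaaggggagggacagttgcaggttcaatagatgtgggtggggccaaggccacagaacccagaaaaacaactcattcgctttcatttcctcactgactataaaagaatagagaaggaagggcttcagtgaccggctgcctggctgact
CASP8: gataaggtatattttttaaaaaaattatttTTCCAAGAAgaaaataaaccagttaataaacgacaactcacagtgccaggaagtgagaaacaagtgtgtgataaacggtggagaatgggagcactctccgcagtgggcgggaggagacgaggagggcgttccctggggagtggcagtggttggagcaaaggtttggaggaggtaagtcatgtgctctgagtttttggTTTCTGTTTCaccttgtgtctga
Over the 9 promoters of the 4 genes, the ISRE core was in 2, the GAS letters in 1, and neither in 7. Of all 35116 promoters in the table, 3.04% held the ISRE core and 6.52% the GAS letters in the same 250-base window. These matches describe the sequence and are not evidence of binding.

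In the hg38 assembly, the receptor genes lie in a cluster on chromosome 8. TNFRSF10B spans 23020133 to 23069031 on the minus strand, TNFRSF10C 23102921 to 23117445 on the plus strand, TNFRSF10D 23135588 to 23164027 on the minus strand, and TNFRSF10A 23190452 to 23225102 on the minus strand. CFLAR and CASP8 lie near each other on the plus strand of chromosome 2, at 201116154 to 201176687 and 201233443 to 201361836. TNFSF10 lies on the minus strand of chromosome 3 at 172505508 to 172523475, and FADD on the plus strand of chromosome 11 at 70203296 to 70207390. Counts were made over exons, and some exons lie within the span of another gene, introns included. A gene on the opposite strand, RHOBTB2, covers 377 exonic bases of TNFRSF10B, a long noncoding RNA on the opposite strand covers 1100 exonic bases of FADD, and another protein-coding gene on the same strand covers 660 exonic bases of TNFRSF10C. The pseudogene IMPDH1P10 spans 2362 exonic bases of CFLAR and CFLAR-AS1 spans 2004, both on the opposite strand. A long noncoding RNA on the strand of CFLAR spans 582. The sources used here do not state which strand was counted, and how reads in these stretches were assigned was not tested.

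Library totals ranged from 9884124 to 24983573 counts. The noncoding RNA RN7SL1 took between 6.02% of counts (DMSO replicate 1 of the OA experiment) and 17.9% (OA replicate 2), and OA replicate 2 also had the lowest normalization factor, 0.73. Its share was higher in every treated library than in every DMSO library of the same experiment, at 8.40% to 17.9% with OA against 6.02% to 8.11%, and at 9.22% to 13.3% with TN against 6.23% to 7.50%, and its part in the results was not tested. The epithelial markers KRT8, KRT18, KRT19, and EPCAM were counted in every library, CDX1 was at 0 in all of them, VIL1 was at 0 to 3 counts, and the 8 leukocyte markers together had 0 to 9 counts in a library. Of the other 2 epithelial markers, CDH1 rose by 1.81 with OA (adjusted p = 0.0271, edgeR) and by 1.69 with TN (adjusted p = 0.00677, edgeR) on the log2 scale, and CDX2 was lower in every OA library than in every DMSO library (log2 fold change −0.76, adjusted p = 0.164, edgeR). The 6 fibroblast markers summed to 1.42 to 2.44 CPM with DMSO and 4.66 to 12.8 CPM with OA, and to 1.99 to 4.59 CPM with DMSO and 2.58 to 4.52 CPM with TN. Most of the OA sum was COL1A1 (log2 fold change 2.02, adjusted p = 0.0723, edgeR), while LUM was at 0 in every library and DCN had 1 count at most. The 4 endothelial markers summed to 0.209 to 2.69 CPM. Of these, KDR and VWF were higher in every OA library than in every DMSO library, at 12 counts at most. Their means were 0.0963 and 0.285 CPM with DMSO and 0.636 and 0.650 CPM with OA. PECAM1 and CDH5 overlapped. The part of these markers in the results was not tested. Within the TN experiment, DMSO and TN replicates 2 and 3 stood apart in their interferon-stimulated genes, whose values are given with the genes they accompany. Levels are given as CPM, the counts of a gene relative to the TMM-scaled total of its library. TMM factors were computed within each experiment, but over all 12 libraries for the comparison of OA with TN changes and the correlations with TNFRSF10B. Changes are log2 fold changes from the edgeR quasi-likelihood test, and a gene is said to have risen or fallen where its Benjamini-Hochberg adjusted p over all tested genes was under 0.05.

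Upon OA treatment, DR5 (TNFRSF10B) rose about 5-fold, and it was the 1 gene called of the 6 that were tested. Among all tested genes of this experiment, 4.48% were called, 2.76% higher and 1.72% lower. Upon TN treatment, TNFRSF10B rose about 3-fold and was again the 1 gene called, here of 7 tested, where 6.99% of all genes were called, 3.65% higher and 3.34% lower. With the replicate number as a block, TNFRSF10D was also called with TN (adjusted p = 0.0181, edgeR), in a fit that called 27.1% of all genes. In the OA experiment, 4 of the 6 genes (TNFRSF10B, TNFRSF10D, CASP8, and CFLAR) had every treated library above every DMSO library, compared with 16.3% of all tested genes, and in the TN experiment 1 of 7 did (TNFRSF10B), compared with 15.9%. TNFSF10 and TNFRSF10C were too low for the OA test, and TNFSF10 for the TN test. In bulk RNA, a change in all cells and a change in some of them cannot be told apart.

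**Figure D1:**
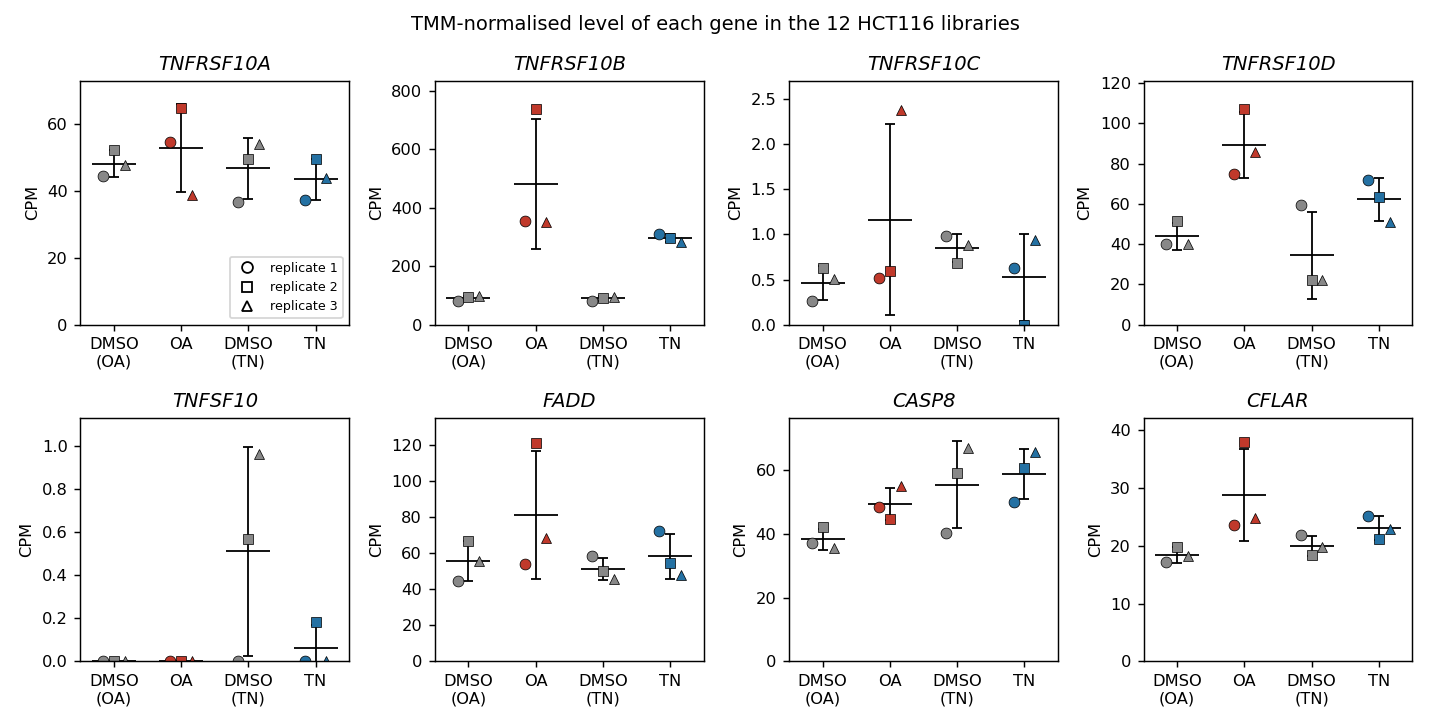
Level of each of the 8 genes in CPM (linear axes from 0) in DMSO and treated libraries of the OA and TN experiments, with 1 symbol per replicate and the mean ± SD of 3 libraries in black. TNFRSF10B lies between 81.6 and 98.4 CPM in the 6 DMSO libraries and between 284 and 740 CPM in the 6 treated ones.

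DR5 is the signaling receptor with the higher affinity for TRAIL. TNFRSF10B stood at 82.9, 94.0, and 98.4 CPM in the DMSO libraries of the OA experiment and at 356, 740, and 352 CPM in OA replicates 1, 2, and 3. For TN, it stood at 81.6, 91.2, and 96.5 CPM with DMSO and at 311, 298, and 284 CPM with TN. All treated libraries were above all DMSO libraries in both experiments, and OA replicate 2 was far above the other 5 treated libraries. The DMSO means were 91.7 ± 7.99 CPM in the OA experiment and 89.8 ± 7.52 CPM in the TN experiment (SD, n = 3 each). The treated means were 483 ± 223 CPM with OA and 297 ± 13.5 CPM with TN (SD, n = 3 each). Each experiment was scaled separately, so levels in the 2 experiments are not on a common scale.

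In the quasi-likelihood test of edgeR (Benjamini-Hochberg adjusted), the log2 fold change of TNFRSF10B with OA was 2.40 (SE 0.34, 95% interval 1.61 to 3.18, adjusted p = 0.0189). With TN it was 1.73 (SE 0.18, 95% interval 1.30 to 2.16, adjusted p = 0.00501, edgeR). On a linear scale these are 5.26-fold (3.05 to 9.08) and 3.31-fold (2.46 to 4.46). Without OA replicate 2, the OA change was 1.95 (adjusted p = 0.00497, edgeR). With any 1 of the 3 DMSO libraries of the OA experiment left out, it stayed between 2.35 and 2.45 but was no longer called (adjusted p = 0.0901 without replicate 1, 0.0977 without replicate 2, and 0.133 without replicate 3, edgeR), and then 3 to 5 genes of all tested passed. The TN change was between 1.67 and 1.77 and called whichever library was left out.

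The increase with OA was not shown to differ from that with TN. The difference between the log2 changes of TNFRSF10B was 0.57 in favor of OA (SE 0.34, 95% interval −0.18 to 1.31), with an unadjusted p of 0.124 and an adjusted p of 1.00 in edgeR's contrast over all 12 libraries. It was 0.19 without OA replicate 2 and 0.84 without OA replicate 3. None of the 15429 genes tested for such a difference was called by edgeR and 348 (2.26%) had an unadjusted p under 0.05. Of the alternatives, DESeq2 called 2, edgeR called 2 with the GC offset, 6 with the GC offset and replicate block, 4 without OA replicate 2, and 25 of 31222 genes with no filter.

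**Figure D2:**
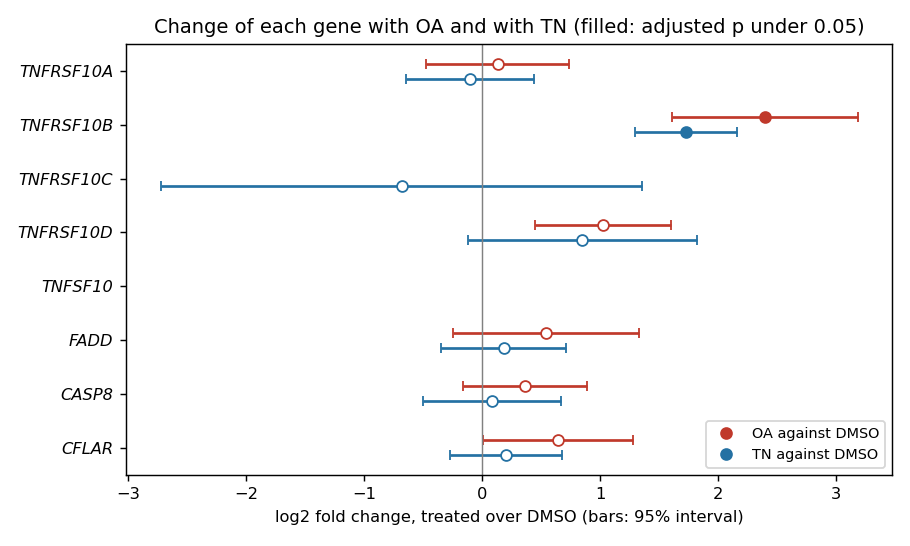
Log2 fold change over DMSO of each tested gene with OA (red) and with TN (blue), with 95% intervals from edgeR; filled points had an adjusted p under 0.05. TNFRSF10B is the 1 filled gene for either stressor, at 2.40 with OA and 1.73 with TN, TNFRSF10C has no OA value, and TNFSF10 has no value.

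The other signaling receptor, DR4, was called with neither stressor. TNFRSF10A stood at 44.4, 52.3, and 47.9 CPM with DMSO and 54.8, 64.9, and 38.8 CPM with OA, and at 36.6, 49.6, and 54.1 CPM with DMSO and 37.2, 49.5, and 43.8 CPM with TN. Treated and DMSO libraries overlapped in both experiments. The log2 fold change was 0.13 with OA (95% interval −0.47 to 0.74, adjusted p = 0.793, edgeR) and −0.10 with TN (95% interval −0.65 to 0.44, adjusted p = 0.829, edgeR). The upper bounds correspond to 1.67-fold with OA and 1.35-fold with TN, both below the lower bound for TNFRSF10B with the same stressor. The sign for TNFRSF10A turned with the scaling, to −0.09 for OA when libraries were scaled to total counts and to 0.21 for TN when they were scaled to ACTB. These scalings move all genes alike, and the medians over all genes were then −0.23 and 0.30.

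DcR2, a receptor with a truncated death domain, had higher values with both stressors without passing the main test, which did not pair libraries. TNFRSF10D stood at 39.9, 51.6, and 40.1 CPM with DMSO and 74.9, 107, and 85.8 CPM with OA. The OA libraries were all above the DMSO libraries, and the log2 fold change was 1.03 (SE 0.25, 95% interval 0.45 to 1.60, adjusted p = 0.0604, edgeR). It was called in 6 of 10 alternative analyses, each with its own share of all genes called, namely with no filter (5.52%), with scaling to ACTB (9.71%), with DESeq2 (13.1%), with a GC offset (20.2%), with a replicate block (26.7%), and with both (29.9%). Its adjusted p over those 10 ranged from 0.00244 to 0.123, and it was also called without OA replicate 1. The 3 same-numbered pairs differed by 0.91, 1.06, and 1.09 on the log2 scale.

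For TN, TNFRSF10D stood at 59.4, 22.0, and 22.1 CPM with DMSO and 72.1, 63.5, and 51.1 CPM with TN. DMSO replicate 1 was far above the other DMSO libraries and within the range of the TN libraries. The log2 fold change was 0.85 (SE 0.42, 95% interval −0.12 to 1.82, adjusted p = 0.264, edgeR). With the replicate number as a block it was 1.00 and called (SE 0.24, adjusted p = 0.0181, edgeR), a fit in which 27.1% of all genes were called. It was also called with scaling to ACTB (9.83% of all genes) and with the GC offset and block (39.5%). Without DMSO replicate 1 it was 1.504 (adjusted p = 0.0339, edgeR), and in replicates 2 and 3 alone, an analysis chosen after seeing the data in which 42.8% of all genes were called, it was 1.45. Without DMSO replicate 2 or DMSO replicate 3 it was 0.57 each time (adjusted p = 0.607 and 0.5999, edgeR). Pair by pair, the TN library was higher by 0.28, 1.52, and 1.21 on the log2 scale. The OA and TN changes of TNFRSF10D differed by 0.11 (95% interval −0.997 to 1.23, adjusted p = 1.00, edgeR), and by −0.59 without DMSO replicate 1 of the TN experiment.

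DcR1, the decoy anchored in the membrane by a lipid tail, had low counts. TNFRSF10C had 5, 16, and 10 counts with DMSO and 7, 6, and 23 counts with OA, and 18, 12, and 12 counts with DMSO and 6, 0, and 11 counts with TN. The groups overlapped for OA, and for TN every TN library had fewer counts than every DMSO library, but in CPM TN replicate 3 (0.94) was within the DMSO range of 0.68 to 0.98. A floor of 3 counts corresponded to between 0.118 and 0.315 CPM, depending on the library. The TN change was −0.68 on the log2 scale with a 95% interval from −2.72 to 1.36 (adjusted p = 0.691, edgeR), and it ran from −1.54 without TN replicate 3 to −0.11 without TN replicate 2. Neither a decrease nor an increase was called with TN, and the gene was too low for the OA test.

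Because shares within a library do not depend on scaling between libraries, the counts of the 4 receptors were also compared with each other. TNFRSF10B took 49.5%, 47.3%, and 52.6% of the pool with DMSO and 73.2%, 81.1%, and 73.5% with OA. For TN, it took 45.7%, 55.8%, and 55.6% with DMSO and 73.9%, 72.5%, and 74.7% with TN. No treated library overlapped a DMSO library. These are shares of counts, in which longer genes weigh more. Per kilobase of exons, a comparison chosen after seeing the data, TNFRSF10B took 36.3% to 41.2% with DMSO and 63.9% to 73.6% with OA, and 35.2% to 43.6% with DMSO and 63.0% to 65.3% with TN. The mean share of counts was 26.1 percentage points higher with OA and 21.3 points higher with TN, each with p = 0.1 in a two-sided exact permutation test over libraries, the smallest p that 3 against 3 allows. With the replicate number as a block, the permutation p was 0.25 for OA and for TN, the smallest two-sided p that 3 pairs allow. The receptor counts behind each share numbered 2344 to 9163, and the widest 95% interval (exact, Clopper-Pearson) was 53.6% to 57.6% in 1 DMSO library of the TN experiment, which covers counting error only.

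The share of TNFRSF10A was lower in every treated than in every DMSO library of its experiment, although its level overlapped. TNFRSF10A made up 26.5%, 26.4%, and 25.6% with DMSO and 11.3%, 7.12%, and 8.10% with OA. For TN, it made up 20.5%, 30.3%, and 31.2% with DMSO and 8.85%, 12.1%, and 11.5% with TN. TNFRSF10D, whose own level was higher with OA, went from between 21.5% and 26.0% to between 11.8% and 17.9%. With TN, its share of 17.1%, 15.5%, and 13.5% lay among the DMSO shares of 33.3%, 13.4%, and 12.7%. TNFRSF10C was under 0.6% of receptor counts in every library.

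**Figure D3:**
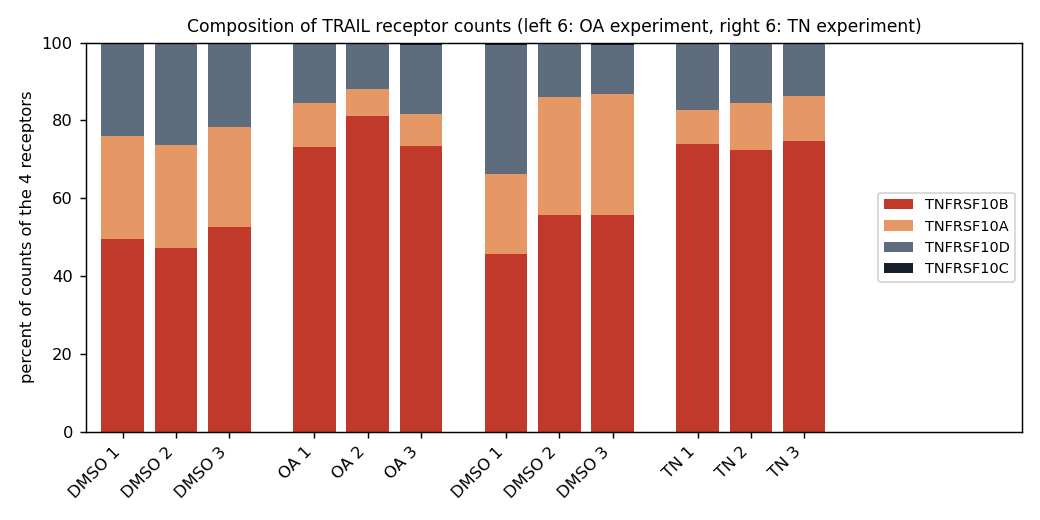
Stacked bars of the percent of counts of the 4 TRAIL receptor genes that fell on each gene, 1 bar per library, with the OA experiment on the left and the TN experiment on the right. TNFRSF10B makes up 45.7% to 55.8% of the bars of DMSO libraries and 72.5% to 81.1% of those of treated libraries.

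The ligand was not measured above the floor in most cultures. TNFSF10 had 0 counts in all 6 libraries of the OA experiment, which at a floor of 3 counts allows levels of up to 0.118 to 0.311 CPM. In the TN experiment, it had 0, 10, and 13 counts with DMSO and 0, 2, and 0 counts with TN. DMSO replicates 2 and 3 were the 2 libraries above the floor. No test is given for TNFSF10, because it did not pass the filter on low counts of the main fit in either experiment.

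The libraries with TNFSF10 counts had high levels of interferon-stimulated genes. The summed level of 15 such genes, which include IFIT1, ISG15, and RSAD2, was 431, 6686, and 6914 CPM in the DMSO libraries of the TN experiment and 396, 2638, and 2742 CPM in the TN libraries. In the 6 libraries of the OA experiment, the same sum lay between 325 and 471 CPM. DMSO and TN replicates 2 and 3 thus stood apart from DMSO and TN replicate 1 of the same experiment, and the 2 DMSO libraries with the highest sums were those with 10 and 13 counts of TNFSF10 and with the lowest TNFRSF10D. The leukocyte markers were at 0 to 9 counts in these libraries as in the others. None of the 14 tested genes of the list was called with TN by edgeR in the main fit or by DESeq2, and none had an unadjusted p under 0.05 in that main fit. With the replicate block 10 were called, all lower, where 27.1% of all genes were called, and 12 with the GC offset and block (39.5%). In replicates 2 and 3 only, 13 were called (42.8%), with no filter 4 (5.85%), and without DMSO replicate 1 of the TN experiment 1 (3.16%). The median log2 fold change over the 14 was −1.73, compared with −0.03 over all tested genes. The part of these cultures' state in the values of TNFSF10, TNFRSF10D, and CASP8 was not tested.

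**Figure D4:**
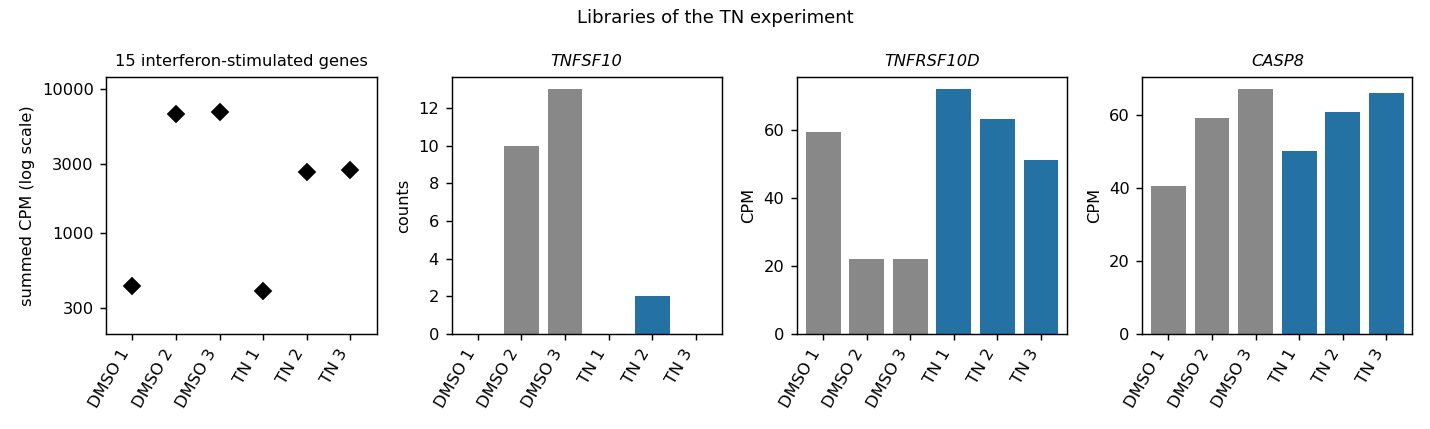
Libraries of the TN experiment (gray, DMSO; blue, TN), showing the summed CPM of 15 interferon-stimulated genes on a log axis, TNFSF10 in counts, and TNFRSF10D and CASP8 in CPM. In replicates 2 and 3 the interferon-stimulated sum is 2638 CPM or more, against 431 CPM or less in replicate 1, and TNFSF10 reaches 13 counts in DMSO replicate 3.

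FADD, the adaptor between the death receptors and caspase-8, was called with neither stressor. It stood at 44.9, 66.9, and 55.7 CPM with DMSO and 54.0, 121, and 68.6 CPM with OA, where OA replicate 2 was above all others and replicate 1 lay within the DMSO range. For TN, it stood at 58.2, 49.997, and 45.9 CPM with DMSO and 72.2, 54.6, and 48.1 CPM with TN, and the groups overlapped. The log2 fold change was 0.54 with OA (95% interval −0.24 to 1.33, adjusted p = 0.377, edgeR) and 0.18 with TN (95% interval −0.35 to 0.72, adjusted p = 0.685, edgeR). Without OA replicate 2, the OA value was 0.12.

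CASP8, the initiator protease, stood at 37.3, 42.1, and 35.7 CPM with DMSO and 48.6, 44.8, and 55.0 CPM with OA. The OA libraries lay just above the DMSO libraries, but the log2 fold change of 0.37 was not called (95% interval −0.16 to 0.89, adjusted p = 0.372, edgeR). For TN, CASP8 stood at 40.4, 59.2, and 66.9 CPM with DMSO and 50.1, 60.6, and 65.8 CPM with TN. Here the libraries differed by replicate number more than by treatment, with both libraries of replicate 1 below the other 4. The log2 fold change was 0.09 (95% interval −0.50 to 0.67, adjusted p = 0.874, edgeR).

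CFLAR, the inhibitor, stood at 17.2, 19.8, and 18.2 CPM with DMSO and 23.6, 37.9, and 24.8 CPM with OA. The OA libraries were all above the DMSO libraries, and the log2 fold change was 0.64 (SE 0.28, 95% interval 0.01 to 1.28, adjusted p = 0.210, edgeR), or 0.39 without OA replicate 2. It was called in 2 of 10 alternative analyses, with a replicate block (26.7% of all genes called) and with the GC offset and block (29.9%), though the replicate numbers were not taken to pair the OA libraries. Its adjusted p over the 10 ranged from 0.0438 to 0.386 (edgeR and DESeq2). For TN, CFLAR stood at 21.9, 18.4, and 19.8 CPM with DMSO and 25.1, 21.1, and 22.9 CPM with TN, and the groups overlapped. The log2 fold change was 0.20 (95% interval −0.27 to 0.68, adjusted p = 0.601, edgeR). The 3 same-numbered TN and DMSO pairs differed by 0.20, 0.19, and 0.21 on the log2 scale.

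The balance of inhibitor and protease was read as the log2 ratio of CFLAR to CASP8 counts in each library. It averaged −1.06 ± 0.07 with DMSO and −0.81 ± 0.50 with OA, and −1.44 ± 0.48 with DMSO and −1.35 ± 0.30 with TN (SD, n = 3 each; exact permutation p = 0.7 for OA and 0.6 for TN). OA replicate 2 had 0.847 counts of CFLAR for each count of CASP8, whereas OA replicates 1 and 3 had 0.486 and 0.452, within or just under the DMSO values of 0.462, 0.471, and 0.509. Without OA replicate 2, the OA difference turned from 0.25 to −0.03. The TN difference of 0.09 was 0.37 without DMSO replicate 1 and below 0 without DMSO replicate 2 (−0.03), DMSO replicate 3 (−0.06), or TN replicate 1 (−0.08). The ratio in the TN experiment was higher in replicate 1 (0.541 with DMSO and 0.501 with TN) than in replicates 2 and 3 (0.295 to 0.348).

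The order of levels between genes was read per kilobase of merged exons, a scale that underrates genes with long untranslated or rarely used exons such as CFLAR. In the DMSO libraries of the OA experiment, FADD was highest at 32.7 ± 6.45 CPM per kilobase, followed by TNFRSF10B at 18.3 ± 1.60, TNFRSF10A at 16.5 ± 1.35, TNFRSF10D at 12.4 ± 1.89, CASP8 at 5.30 ± 0.46, CFLAR at 0.82 ± 0.06, and TNFRSF10C at 0.30 ± 0.12 (SD, n = 3 each). TNFRSF10B and TNFRSF10A, neighbors in this order, had overlapping ranges of 16.5 to 19.6 and 15.2 to 17.9 CPM per kilobase, with TNFRSF10B the higher in each of the 3 libraries. With OA, TNFRSF10B came first at 96.3 ± 44.4 CPM per kilobase, ahead of FADD at 47.6 ± 20.8, TNFRSF10D at 25.3 ± 4.68, and TNFRSF10A at 18.1 ± 4.50. With TN, TNFRSF10B also came first at 59.3 ± 2.69 CPM per kilobase, ahead of FADD at 34.1 ± 7.30.

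Genes around the receptors were taken from 4 lists of 46 genes in all, of which 41 were tested in each experiment. With OA, 7 rose and 1 fell, where 4.48% of all genes were called, with a median log2 fold change of 0.40 over the 41. With TN, 6 rose and 1 fell, where 6.99% of all genes were called, with a median of 0.04. The medians over all tested genes were −0.02 and −0.03. The list named regulators of death receptor genes held most of the calls, and whether its genes act on the receptors here was not tested. With any 1 DMSO library of the OA experiment left out, none of the 41 was called with OA, in fits that called 0.02% to 0.0335% of all genes, and without OA replicate 3, 3 were (0.587% of all genes). With TN, 20 were called with the replicate block (27.1% of all genes), 12 without TN replicate 1 (15.8%), and 3 without DMSO replicate 2 (1.23%) or 3 (1.01%).

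Of the 12 genes listed as regulators, 6 rose and none fell with OA, where 2.76% of all genes rose and 1.72% fell. With TN, 4 rose and 1 fell, where 3.65% of all genes rose and 3.34% fell. The median log2 fold changes of the list were 1.25 and 0.87. DDIT3, which encodes CHOP, stood at 7.71 to 9.66 CPM with DMSO and 178 to 573 CPM with OA, a log2 fold change of 5.23 (adjusted p = 0.0100, edgeR). With TN, DDIT3 went from 10.7 to 21.6 CPM to between 305 and 408 CPM, a log2 fold change of 4.33 (adjusted p = 0.00240, edgeR). TRIB3, a pseudokinase induced by CHOP and ATF4, rose by 3.08 with OA and 3.22 with TN on the log2 scale. ERN1, which encodes the endoplasmic reticulum stress sensor IRE1α, rose by 1.87 and 1.67. ATF4, the central transcription factor of the integrated stress response, rose by 1.38 and 1.46. ATF3, another stress-induced transcription factor, rose by 3.49 with OA, and its TN value was 0.96 (adjusted p = 0.198, edgeR). With OA it ranged from 65.8 to 336 CPM (158 ± 154, SD, n = 3), against 13.3 to 14.5 CPM with DMSO. The size of its OA change therefore depended much on the highest library. MYC, which primes cells for TRAIL signaling, fell by 1.19 with TN, and its OA value was −0.65 (adjusted p = 0.196, edgeR).

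Of 14 tested adaptors, kinases, and genes of ubiquitin control, RBCK1 rose with both stressors and TRAF2 fell with OA. RBCK1, which encodes the HOIL-1 subunit of the linear ubiquitin ligase complex, went from 35.0 to 52.3 CPM with DMSO to between 310 and 658 CPM with OA, a log2 fold change of 3.36 (adjusted p = 0.0116, edgeR), and its TN value was 2.67 (adjusted p = 0.00677, edgeR). RBCK1 starts 9938 bases downstream of the end of TRIB3 on the same strand of chromosome 20, and whether reads running on from TRIB3 add to its counts was not tested. TRAF2, an adaptor that recruits ubiquitin ligases to receptor complexes, was between 31.1 and 49.7 CPM with DMSO and between 13.4 and 18.6 CPM with OA, a log2 fold change of −1.27 (adjusted p = 0.0471, edgeR). With TN, the TRAF2 value was −1.04 (adjusted p = 0.0695, edgeR), and −1.04 with the replicate block, where it was called (adjusted p = 0.00343, edgeR).

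Of the 4 tested genes among 8 other death ligands and receptors, TNFRSF1A, the main receptor for TNF, rose with TN by 1.19 on the log2 scale (adjusted p = 0.0410, edgeR). Its OA value was 1.504 (adjusted p = 0.0525, edgeR), and treated libraries were above DMSO libraries in both experiments. The TN call was lost in 5 of the 6 fits that left out a library, all but that without TN replicate 1, and those fits called 1.01% to 3.16% of all genes. The OA value was called in 9 of 10 other alternatives, which called 5.1% to 29.9% of all genes, and in 2 of the 6 fits that left out a library, those without OA replicate 1 (7.57%) and OA replicate 2 (5.53%). The ligand genes of this list did not pass the filter on low counts.

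None of the 11 executioner caspases and genes of the mitochondrial arm, which carry the caspase-8 signal to cell death, was called with either stressor by edgeR, and DESeq2 called 1 with each, where it called 13.1% of all genes with OA and 15% with TN. The replicate block gave 5 calls with OA and 6 with TN, where it called 26.7% and 27.1% of all genes. With the GC offset there were 4 with each, where 20.2% and 23.2% of all genes were called. The median log2 fold change over the 11 was −0.54 with OA and −0.53 with TN. With each, 3 of 11 were above 0, where 48.8% (OA) and 48.1% (TN) of all tested genes were. BID, the caspase-8 substrate that links the receptors to mitochondria, was between 61.4 and 78.2 CPM with DMSO and between 30.8 and 44.8 CPM with OA, without overlap, where 15.5% of all genes had treated libraries below all DMSO libraries (16.8% in the TN experiment), and was named after its values were seen. Its log2 fold change was −0.80 with OA (adjusted p = 0.109, edgeR) and −0.66 with TN (adjusted p = 0.151, edgeR), and −0.68 with TN under the replicate block, where it was called (adjusted p = 0.0128, edgeR). CASP9, also named after its values were seen, went the other way. The log2 fold change of CASP9 was 0.43 with OA (adjusted p = 0.420, edgeR) and 0.70 with TN (adjusted p = 0.0960, edgeR). Its OA libraries overlapped the DMSO libraries. Every TN library was above every DMSO library, a pattern that 15.9% of all genes had.

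**Figure D5:**
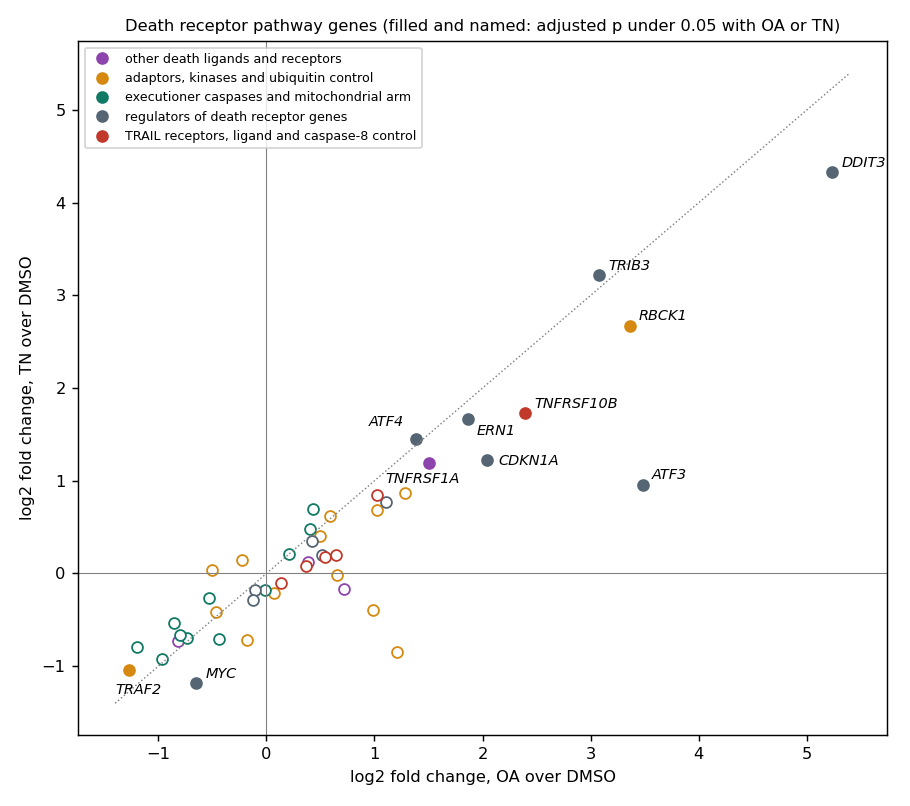
Log2 fold change with TN against that with OA for the tested genes of the 5 gene lists, colored by list, with the dotted line at equal change; filled and named genes had an adjusted p under 0.05 with at least 1 stressor. DDIT3 is farthest out at 5.23 and 4.33, and TNFRSF10B lies at 2.40 and 1.73 apart from the other TRAIL pathway genes in red, which lie at 1.03 or less on both axes.

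Among 8983 genes with at least 10 CPM on average, the 5 whose log2 CPM followed TNFRSF10B most closely over the 12 libraries were ARHGEF2 (r = 0.992), CDCP1, a transmembrane glycoprotein (r = 0.990), SH3TC1 (r = 0.989), STC2, the secreted glycoprotein stanniocalcin-2 (r = 0.987), and NDRG1, a stress-responsive gene (r = 0.985). These 12 libraries share 2 treatments and their controls, so a gene that is high in all treated libraries has a high r. On the same measure, the genes of the 4 lists closest to TNFRSF10B were ERN1 at rank 36 (r = 0.972), RBCK1 at 47 (0.970), TRIB3 at 70 (0.964), ATF4 at 124 (0.953), TNFRSF1A at 140 (0.949), and DDIT3 at 153 (0.947). Among the TRAIL genes themselves, CFLAR ranked 595 (r = 0.854) and TNFRSF10D 987 (r = 0.762), followed by FADD, CASP8, and TNFRSF10A at 1582, 2788, and 3001.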

How the data were processed

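RNA-seq libraries of HCT116 cells were analysed after 24 h of OA or TN, with 3 replicates of each stressor and 3 of its own DMSO control. Per the study's methods, the authors aligned reads to hg38 with STAR and counted them per gene with Gencode version 32, and the deposited values are raw counts without normalization. The labels name a stranded total RNA kit, and the strand counted is not given in the sources used here. The authors' tables of fold changes and p-values from DESeq2 were not used. Replicate files differed by more than sampling noise. The labels and the study's methods call the replicates "biological", and the study's legend for the OA and TN data gives 3 independent experiments unless otherwise stated. Nothing further on separate cultures was found in the sources used here.

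Genes kept by filterByExpr were scaled by TMM. Two-sided quasi-likelihood tests (edgeR 4.0.16, R 4.3.3) were run separately for OA and TN and as a contrast over 12 libraries, and p-values were adjusted by Benjamini-Hochberg across every gene tested, with a threshold of 0.05. The procedure was tested on simulated data. Shares and ratios were compared by exact permutation. Intervals from counts cover counting error only. Coordinates and exon lengths are those of Gencode version 44 (hg38).

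The genes and lists were chosen with earlier results of these data known. Every gene of the group is given in every library, and of each other list at most the 5 called genes with the lowest p per comparison, and the 5 genes most like TNFRSF10B. BID, CASP9, and the markers of cell types are given outside this rule. Deviations from the group mean of same-numbered TN and DMSO libraries correlated at 0.64, 0.40, and 0.42 over genes, all over 0.1, so their replicate numbers were taken to pair the libraries. The main TN test nevertheless did not use this pairing, and fits with the replicate block are given as alternatives. TN replicate 2 with DMSO replicate 3 (0.43) and TN replicate 3 with DMSO replicate 2 (0.37) correlated as closely, so the numbers do not tell replicates 2 and 3 apart. Alternatives were DESeq2 1.42.0, its size factors, scaling to total counts or ACTB, other filters, a replicate block, a GC offset, 1 fit of all libraries, and leaving out each library.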

Additional observations from a re-analysis of the deposited data

How the results depend on the processing

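TNFRSF10B was called with OA in 10 of 10 alternatives other than leaving out a library (log2 fold change 2.11 to 2.85) and with TN in 11 of 11 (1.57 to 2.04), of which 1 was chosen after seeing the data. The number of the 8 genes called with OA was 1 in the report (4.48% of all genes). It was 2 with DESeq2 (13.1%), with scaling to ACTB (9.71%), with no filter (5.52%), and with the GC offset (20.2%). It was 3 with the replicate block (26.7%) and with the GC offset and replicate block (29.9%). When 1 library was left out it was 0 to 2 (0.02% to 7.57%). With TN it was 1 in the report (6.99% of all genes). It was 2 with scaling to ACTB (9.83%), with the replicate block (27.1%), with the GC offset and replicate block (39.5%), and in replicates 2 and 3 only (42.8%). When 1 library was left out it was 1 to 2 (1.01% to 15.8%). The genes added were TNFRSF10D in every case and CFLAR in both blocked OA fits (0.62, adjusted p = 0.0481 and 0.0438, edgeR). Of the 4 lists, 8 genes were called with OA, and 17 with the replicate block (26.7% of all genes), 15 with the GC offset (20.2%), 20 with both (29.9%), and 0 to 11 without 1 library (0.02% to 7.57%). With TN it was 7, and 11 with DESeq2 (15% of all genes), 20 with the replicate block (27.1%), 17 with the GC offset (23.2%), 25 with both (39.5%), 27 in replicates 2 and 3 only (42.8%), and 3 to 12 without 1 library (1.01% to 15.8%). Over all genes, 658 were called with OA and 1009 with TN, and 3914 and 3915 with the replicate block. The cause was not tested.

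Values near 0 changed sign. TNFRSF10A with OA was −0.091 with scaling to total counts, and −0.038 (without OA replicate 2) to 0.30 when 1 library was left out. With TN it was 0.21 with scaling to ACTB, and −0.23 to 0.047 when 1 library was left out, positive without DMSO replicate 3 (0.012) and without TN replicate 1. CASP8 with TN was −0.056 with scaling to total counts, and −0.077 (without DMSO replicate 1) to 0.24 when 1 library was left out, also negative without TN replicate 3 (−0.023). The OA minus TN difference of TNFRSF10D was −0.058 with the replicate block, −0.053 with the GC offset and replicate block, and −0.59 (without DMSO replicate 1 of the TN experiment) to 0.42 when 1 library was left out, and that of FADD was −0.069 (without OA replicate 2) to 0.54. Scaling to total counts moved the median of all genes to −0.23 with OA and −0.18 with TN, whereas ACTB scaling gave medians of 0.42 and 0.30, and TNFRSF10B was above these medians each time. Same-numbered OA and DMSO libraries correlated at 0.63, 0.55, and 0.089, of which the last is under 0.1, so the numbers were not taken to pair the OA libraries, although each OA library correlated best with its own number. TNFRSF10C had 0 to 23 counts in a library and TNFSF10 0 to 13, against a floor of 3 counts.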
